A study of Homo sapiens with 6 samples.

Results

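The apoptosis regulators described here are 33 genes of the BCL2 family, the caspases, the inhibitor of apoptosis (IAP) proteins and the adaptors that connect them. They were chosen by name, but with earlier results of these data known. Of the 33 genes, 31 were read by at least 1 probe set with a single gene symbol, out of 15277 genes read in all. BCL2A1 and BIRC3 were not analysed here for want of such a probe set. Messenger RNA was measured on 6 PrimeView arrays in HFL-1, a line of fibroblasts from human fetal lung, as log2 intensities. The study asked whether raising HYAL1, an enzyme that degrades hyaluronan, alters the growth and death of lung fibroblasts. All 6 arrays came from cells grown in F-12K medium with fetal bovine serum and transiently infected with lentivirus in the presence of polybrene. One group of 3 arrays is labelled as infected with the HYAL1 construct in the GV492 lentivirus, and the other group of 3 as infected with the control vector CON335, so no uninfected cells were compared.

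HYAL1 itself went against these labels. Its probe set read 4.81, 4.82 and 4.67 on the arrays labelled HYAL1 and 7.48, 7.49 and 7.46 on the arrays labelled control. The level was thus 2.71 log2 units higher on the control-labelled arrays (limma, standard error 0.0455, adjusted p = 7.78e-07, higher on 3 of 3 arrays), and the exact two-sided permutation test gave p = 0.10, the smallest that 3 arrays against 3 allow. The study's supplementary gene table heads the same arrays the opposite way round. The groups are therefore called the HYAL1-labelled and the control-labelled arrays throughout, and each difference is the control-labelled mean minus the HYAL1-labelled mean. How the 3 arrays of a group were made was not given in the sources used here beyond the words biological replicate and triplicate, so each p-value measures only the spread between these arrays, which may be technical.

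The 6 arrays were close in overall level, with medians between 6.97 and 7.01 and correlations across probe sets of 0.9978 to 0.9989. All 9 fibroblast markers had group means of 9.59 or higher, and 1 of them, COL1A1, passed the test (0.27 higher on the control-labelled arrays). The groups did not overlap for 7 of the 9 (77.8%, against 24.4% of all genes). Of these 7, 6 were higher on the control-labelled arrays and 1 on the HYAL1-labelled arrays. An unadjusted p under 0.05 was found for 5 of the 9, against 17.4% of all genes. Of 12 markers of epithelial, endothelial and leukocyte cells, 8 were read. Of these 8, 6 were dimmer on every array than the array's own median background level, and 0 of the 8 passed. Of the other 2, SFTPC was below it on 5 of the 6 arrays. CD68, a leukocyte marker, was above it on every array, at 7.93 on the HYAL1-labelled and 7.95 on the control-labelled arrays. Of all genes, 253 passed an adjusted p of 0.05 (1.66%), 185 higher on the control-labelled and 68 higher on the HYAL1-labelled arrays.

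Apoptosis is a regulated form of cell death carried out by caspases, proteases that are made as inactive precursors. In the mitochondrial route, BH3-only proteins relieve the anti-apoptotic BCL2 proteins' hold on BAX and BAK1, which open the outer mitochondrial membrane and release cytochrome c, and cytochrome c then assembles APAF1 and CASP9 into the apoptosome. In the death receptor route, FADD recruits CASP8 or CASP10, CFLAR competes with them, and IAP proteins restrain caspases and receptor complexes. Activated fibroblasts in scarred lung are known for resisting apoptosis, which is why these genes are of interest in the fibroblast.

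The regulators hardly differed between the groups. Only CASP6, the executioner caspase that cleaves lamin A, passed the test, and it was 1.14-fold higher on the HYAL1-labelled arrays. This is 1 of 31 genes (3.23%), against 1.66% of all genes in either direction and 0.445% of all genes in that direction. No regulator passed as higher on the control-labelled arrays. At an unadjusted p under 0.05 there were 3 of 31 (CASP6, BCL2L2 and CYCS), against 17.4% of all genes, and the groups did not overlap for 4 of 31 (12.9%), against 24.4% of all genes. The differences ran from -0.19 to 0.14, with 13 above 0 and 18 below. Over all genes, 6522 differences lay above 0 and 8755 below. The median was -0.01 for the regulators, as it was over all genes. The median size was 0.0395 for the regulators and 0.0502 for all genes, and 17 of the 31 (54.8%) moved by less than 0.05, against 49.8% of all genes. Being bulk RNA, the arrays cannot tell fewer cells that carry a transcript from less of it in each cell.

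**Figure D1:**
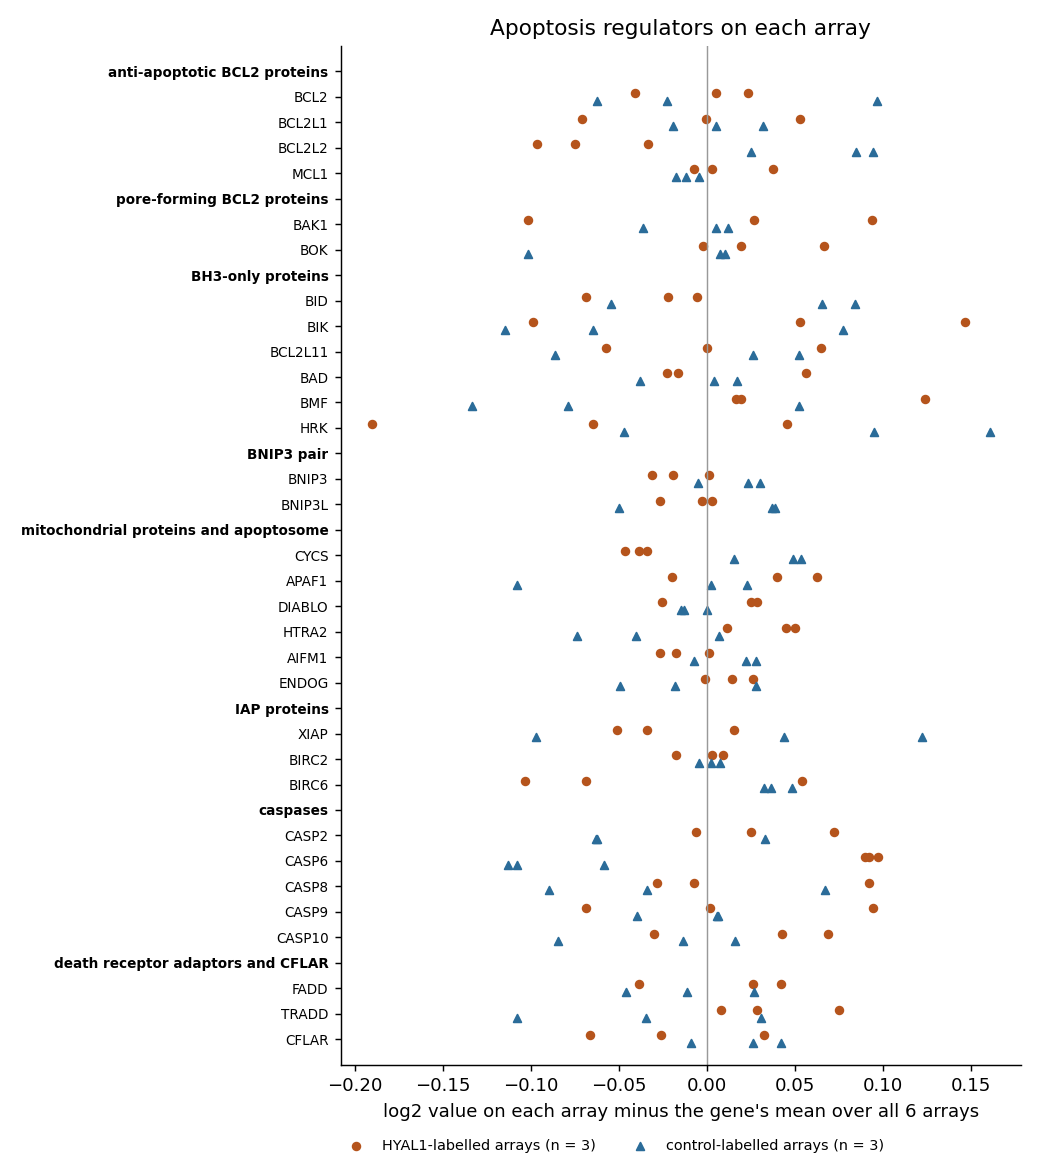
Level of 31 apoptosis regulators on each of 6 arrays, as the log2 value minus the gene's mean over all arrays (horizontal axis), with circles for the 3 HYAL1-labelled and triangles for the 3 control-labelled arrays. Circles and triangles are apart for CASP6, BCL2L2, CYCS and HTRA2 and overlap for the other genes.

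The promoters of the genes on which these results turn are shown for context. They are CASP6, CYCS and BIRC6, each as the 250 bases before the transcription start in RefSeq (build GRCh38.p14), read 5′ to 3′ on the gene's own strand. BCL2L2 has no entry in the promoter table used. Capitals mark GGGCGG (a GC box, the binding site of SP1-type factors), CCAAT (the CCAAT box bound by NFY), TGACG (the half-site of the cAMP response element) and GCGCATGC (the core of the NRF1 site), each searched on both strands. CASP6 lies at chr4:109703446-109703695 on the minus strand, CYCS at chr7:25125261-25125510 on the minus strand, and BIRC6 at chr2:32356773-32357022 on the plus strand.
CASP6: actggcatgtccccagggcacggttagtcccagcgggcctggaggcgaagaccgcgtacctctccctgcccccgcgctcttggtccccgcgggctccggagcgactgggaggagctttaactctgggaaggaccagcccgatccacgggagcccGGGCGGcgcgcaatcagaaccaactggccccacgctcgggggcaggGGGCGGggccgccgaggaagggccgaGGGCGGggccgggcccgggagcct
CYCS: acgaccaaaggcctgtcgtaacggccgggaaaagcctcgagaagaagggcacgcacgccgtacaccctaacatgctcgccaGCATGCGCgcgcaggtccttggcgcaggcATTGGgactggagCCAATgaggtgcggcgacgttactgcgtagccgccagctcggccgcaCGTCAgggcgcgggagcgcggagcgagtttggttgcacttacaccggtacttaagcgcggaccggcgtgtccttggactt
BIRC6: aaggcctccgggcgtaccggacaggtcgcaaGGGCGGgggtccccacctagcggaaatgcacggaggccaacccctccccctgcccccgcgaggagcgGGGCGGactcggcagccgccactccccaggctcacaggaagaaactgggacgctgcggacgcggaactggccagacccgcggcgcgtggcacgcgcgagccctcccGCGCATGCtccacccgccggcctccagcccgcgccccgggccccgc

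The CASP6 promoter holds 3 GC boxes and is 74% G or C. The CYCS promoter holds 2 CCAAT boxes, 1 half-site and 1 NRF1 core, and the BIRC6 promoter holds 2 GC boxes and 1 NRF1 core. Of the 31 regulators, 25 matched the table. Among these 25 promoters, 18 held a GC box (72%, against 42.6% of all 35116 promoters), 11 a CCAAT box (44%, against 32%), 9 the half-site (36%, against 21.2%) and 4 the NRF1 core (16%, against 2.63%). The TATA box (TATAAA) was found in 1 (4%, against 10.7%) and the E-box (CACGTG) in 1 (4%, against 6.34%), neither of them in the promoters shown. The 4 with the NRF1 core are CYCS, AIFM1, BIRC6 and FADD. The 35116 promoters are all entries available, more than the 15277 genes read, so these shares do not compare like sets. A match is a description of the letters only, and no binding was measured.

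Among the caspases, CASP6 read 8.29, 8.29 and 8.28 on the HYAL1-labelled arrays and 8.13, 8.09 and 8.08 on the control-labelled arrays. Every HYAL1-labelled array was higher than every control-labelled one, and the SD of the HYAL1-labelled arrays was the smallest of any regulator (8.29 ± 0.00392 against 8.10 ± 0.0299, SD, n = 3). The difference was -0.19 (limma, standard error 0.0308, 95% interval -0.26 to -0.11, adjusted p = 0.0374). The call was lost in 9 of 17 alternative fits, among them each of the 6 that left out 1 array (adjusted p = 0.0685 to 0.153), the arrays centred on their medians (0.0525), the per-gene test the study names, with no variance shared across genes (0.0585) and the replicate block (0.117), while the direction held in all 17. The call rests on a single probe set. A pair of further probe sets that the annotation lists for both CASP6 and its neighbour PLA2G12A differed by 0.02 (adjusted p = 0.809) and -0.02 (adjusted p = 0.745).

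The other 4 caspases also lay on the lower side in the control-labelled arrays without passing the test, and the median over the 5 caspases was -0.05, although CASP9 turned to 0.01 and 0.04 under the other rules for choosing probe sets. CASP2, a caspase activated after DNA damage, averaged 8.85 on the HYAL1-labelled and 8.79 on the control-labelled arrays (adjusted p = 0.482). CASP9, the initiator of the apoptosome, averaged 8.22 and 8.20 (adjusted p = 0.881). CASP8, the initiator at death receptors, averaged 7.01 and 6.97 (adjusted p = 0.761), and its relative CASP10 4.95 and 4.90 (adjusted p = 0.553). CASP10 was below the background median on every array, so its level may be poorly measured. Only CASP6 and CASP10 of these 5 have 1 probe set, and the probe sets of CASP2, CASP8 and CASP9 differed in direction among themselves.

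All 9 background probe sets of the array were also slightly higher on the HYAL1-labelled arrays, by 0.02 to 0.14. Their part in the CASP6 difference and in the direction of the caspases was not tested. The background medians lay between 6.69 and 6.90, and 5 regulators (BCL2, BIK, HRK, APAF1 and CASP10) were below them on every array. Single background probe sets ran from 4.46 to 11.27, so their median is no sharp limit of detection.

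Among the anti-apoptotic BCL2 proteins, which bind and hold back pore formers and BH3-only proteins, BCL2L2 (BCL-W) was the one whose groups were apart. It read 10.15, 10.19 and 10.13 on the HYAL1-labelled arrays and 10.25, 10.31 and 10.32 on the control-labelled arrays. The control-labelled mean was higher by 0.14, or 1.1-fold (limma, standard error 0.035, 95% interval 0.05 to 0.22), but this missed the threshold (adjusted p = 0.118). With a prior variance that follows the level of expression, which calls 6.70% of all genes, it passed (adjusted p = 0.0066), and also when the 30% of genes of lowest level were left out, which calls 6.29% of the rest (adjusted p = 0.0469). Its other probe sets differed by 0.07 and -0.02. The gene neighbours and overlaps the read-through gene BCL2L2-PABPN1, whose transcripts the probe set may also read.

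The other anti-apoptotic genes had groups that overlapped. MCL1, a short-lived survival protein, averaged 10.79 on the HYAL1-labelled and 10.77 on the control-labelled arrays, BCL2L1 (BCL-XL) 8.94 and 8.96, and BCL2 6.11 and 6.11. Their differences were within 0.03 in size, and their adjusted p-values were 0.75, 0.912 and 0.953. All 6 probe sets of MCL1 lay on the lower side in the control-labelled arrays, by 0.02 to 0.13, and all 3 of BCL2L1 on the higher side, by 0.01 to 0.12. Probe sets of 1 gene share the same 6 RNA samples and are not replicates, and none of these passed the test.

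The pore-forming proteins did not pass. BAK1, which opens the outer mitochondrial membrane, averaged 8.27 and 8.25 (adjusted p = 0.931), and BOK, its less studied relative, 7.64 and 7.58 (adjusted p = 0.543). The 5 probe sets of BAK1 disagreed in direction. The one of highest level differed by -0.01, and a pair of dimmer ones were higher on the control-labelled arrays by 0.11 and 0.13 with no overlap of the groups (adjusted p = 0.262 and 0.218 among all probe sets).

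The BH3-only genes, whose products sense damage and switch on pore formation, showed no common direction, with 2 of 6 above 0 and 4 below. HRK, known for its part in the death of neurons, differed by 0.14 and BMF, a sensor linked to the cytoskeleton, by -0.11, but their groups overlapped (adjusted p = 0.382 and 0.38). HRK, at 4.91 and 5.05, was below the background median, and its 95% interval reached 0.31, the bound farthest from 0 among the genes that did not pass. BID, which carries the signal of CASP8 to mitochondria, averaged 9.37 and 9.43 (adjusted p = 0.515). BIK averaged 5.70 and 5.63 (adjusted p = 0.689), BAD, controlled by phosphorylation in response to survival factors, 9.47 and 9.46 (adjusted p = 0.906), and BCL2L11 (BIM) 7.53 and 7.53 (adjusted p = 0.969).

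Further probe sets gave more detail for BCL2L11 and BID. All 7 probe sets of BCL2L11 lay on the lower side in the control-labelled arrays, from -0.20 to 0.00. The brightest, at 7.53 in both groups, differed by -0.0052, and all the others were below the background medians. For 2 of these dimmer ones the groups did not overlap (-0.13 and -0.16, adjusted p = 0.21 and 0.176 among all probe sets). All 4 probe sets of BID lay on the higher side. The one that moved most read 8.89, 8.93 and 8.91 on the HYAL1-labelled arrays against 8.99, 9.02 and 9.06 on the control-labelled arrays, without overlap (0.11, adjusted p = 0.17, and 0.0475 with the level-dependent prior). BNIP3 and BNIP3L, atypical relatives that mark mitochondria for removal under low oxygen, averaged 11.06 and 11.09 and 11.42 and 11.44 (adjusted p = 0.627 and 0.853).

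**Figure D2:**
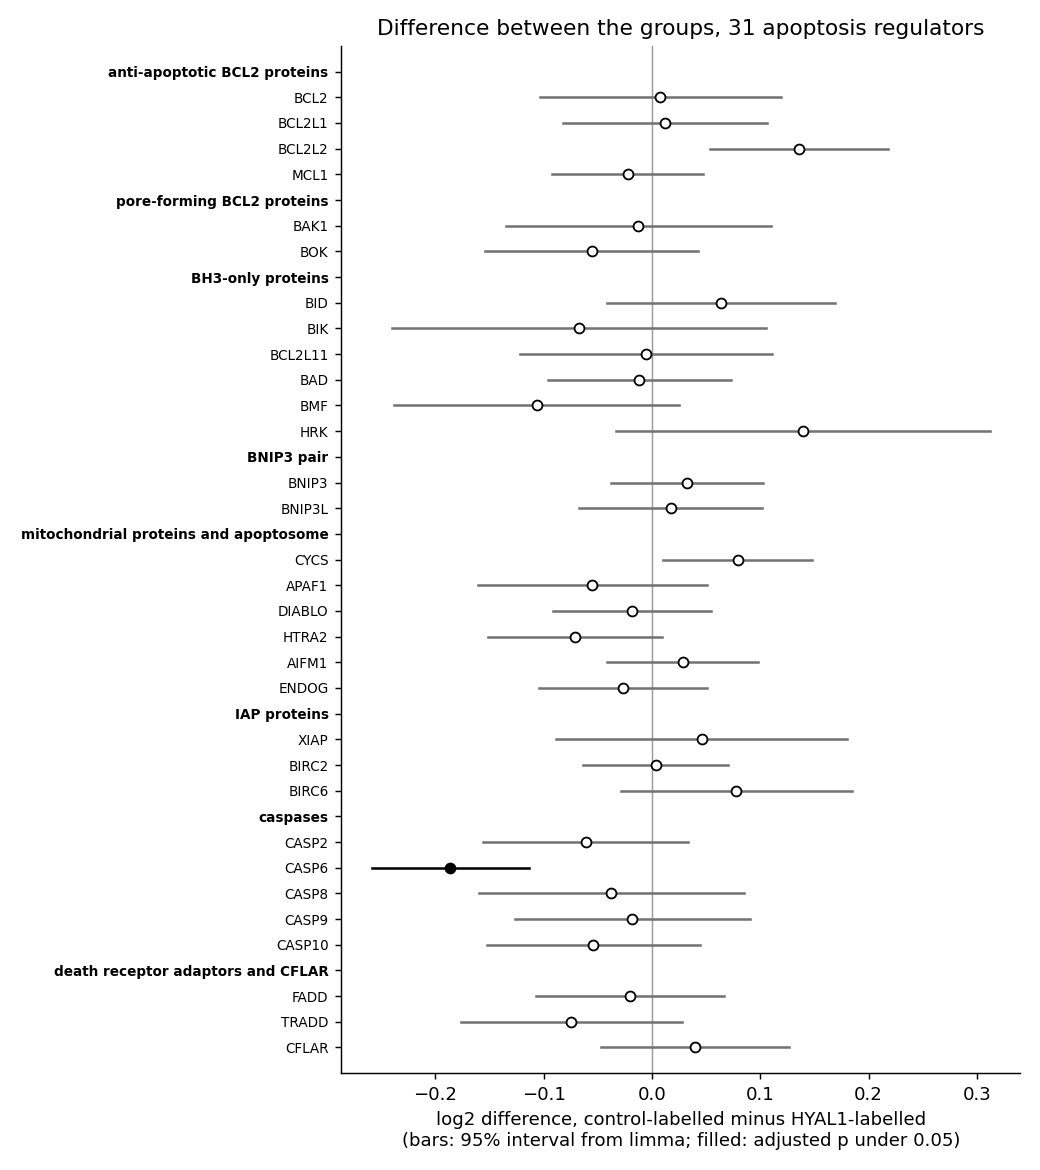
Difference between the groups for 31 apoptosis regulators grouped by role (log2, control-labelled minus HYAL1-labelled), with points for the fitted difference and bars for the 95% interval. The only filled point, at an adjusted p under 0.05, is CASP6 at -0.19, and the intervals of BCL2L2 and CYCS also lie off 0.

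Of the proteins released from mitochondria, CYCS, the cytochrome c that carries electrons in respiration and triggers the apoptosome, differed slightly. It read 11.40, 11.40 and 11.41 on the HYAL1-labelled arrays and 11.49, 11.46 and 11.49 on the control-labelled arrays. The groups did not overlap, with a difference of 0.08, or 1.06-fold (limma, standard error 0.0294, 95% interval 0.01 to 0.15, adjusted p = 0.233). The adjusted p was 0.0337 with the level-dependent prior. A further probe set moved by a like amount without overlap (0.07), and the third, a dimmer one, by 0.00.

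HTRA2, a mitochondrial protease that counters IAP proteins once released, read 8.46, 8.47 and 8.43 on the HYAL1-labelled arrays and 8.38, 8.43 and 8.34 on the control-labelled arrays. The groups were barely apart, the lowest HYAL1-labelled and the highest control-labelled array both rounding to 8.43, and the difference of -0.07 did not pass (standard error 0.0341, adjusted p = 0.34). All 4 of its probe sets lay on the lower side. DIABLO, the other released antagonist of IAP proteins, averaged 9.97 and 9.95 (adjusted p = 0.809). APAF1, the scaffold of the apoptosome, averaged 6.36 and 6.30 (adjusted p = 0.577), and AIFM1 and ENDOG, which act on nuclear DNA without caspases, 8.57 and 8.60 and 8.32 and 8.29 (adjusted p = 0.674 and 0.734).

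The 3 IAP genes all lay on the higher side in the control-labelled arrays, with a median of 0.05, and none passed at the gene level. XIAP, the direct inhibitor of CASP9 and the executioner caspases, averaged 9.49 and 9.54, and its control-labelled arrays spread widely, from 9.42 to 9.64 (adjusted p = 0.732). Of the 4 probe sets of XIAP, 2 lay above 0 and 2 below. BIRC2 (cIAP1), a ubiquitin ligase at the tumour necrosis factor receptor, averaged 11.17 and 11.18, a difference of only 0.0033 (adjusted p = 0.966).

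BIRC6, a giant IAP protein that ubiquitinates caspases and released mitochondrial factors, was read by 2 probe sets that moved by unequal amounts. The brighter one read 7.68, 7.72 and 7.84 on the HYAL1-labelled arrays and 7.84, 7.82 and 7.82 on the control-labelled arrays, and the groups overlapped (difference 0.08, adjusted p = 0.427). The dimmer one read 7.36, 7.46 and 7.45 against 7.65, 7.78 and 7.72, with every control-labelled array above every HYAL1-labelled one. It was higher by 0.30, or 1.23-fold, on the control-labelled arrays (limma over all 39341 probe sets, standard error 0.047, adjusted p = 0.0351). The changes of the 2 probe sets differed by 0.22, and the exact two-sided permutation test of that difference gave p = 0.10, the smallest possible here. This comparison was chosen after the values were seen and could not reach a lower p, so no conclusion is drawn from it.

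**Figure D3:**
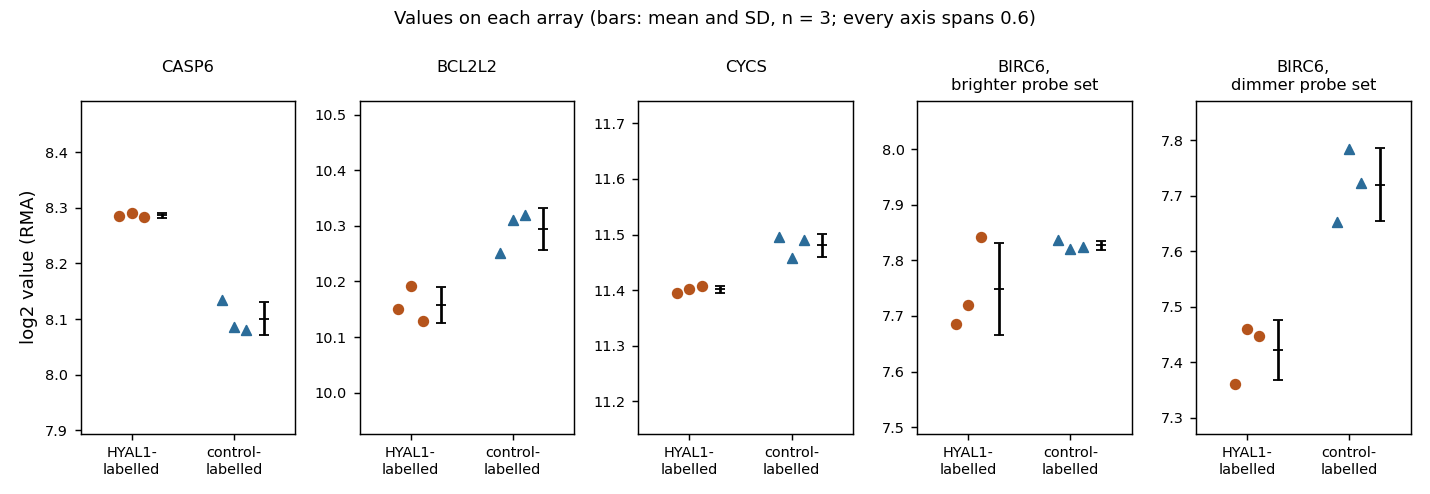
Log2 level of CASP6, BCL2L2, CYCS and both BIRC6 probe sets on each array (points), with the group means and SD (n = 3). CASP6 sits near 8.29 on the HYAL1-labelled arrays and 8.10 on the control-labelled arrays, and the other panels run the opposite way, with overlap only for the brighter BIRC6 probe set.

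The adaptors at death receptors did not pass. FADD, which joins receptors to CASP8, averaged 9.69 and 9.67 (adjusted p = 0.825). TRADD, the adaptor of the tumour necrosis factor receptor, averaged 8.94 and 8.87 (adjusted p = 0.429), and its probe sets pointed opposite ways, at -0.07 and 0.08. CFLAR (FLIP), the inactive relative of CASP8 that binds it at the receptor, averaged 8.06 and 8.09 (adjusted p = 0.634). Of its 9 probe sets, 8 lay above 0. The one that moved most read 7.22, 7.22 and 7.20 on the HYAL1-labelled arrays against 7.29, 7.43 and 7.52 on the control-labelled arrays, without overlap (0.20, or 1.15-fold, adjusted p = 0.147, and 0.0391 with the level-dependent prior). CFLAR, CASP10 and CASP8 lie side by side on chromosome 2, where the first lay on the higher and the others on the lower side in the control-labelled arrays, none passing.

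**Figure D4:**
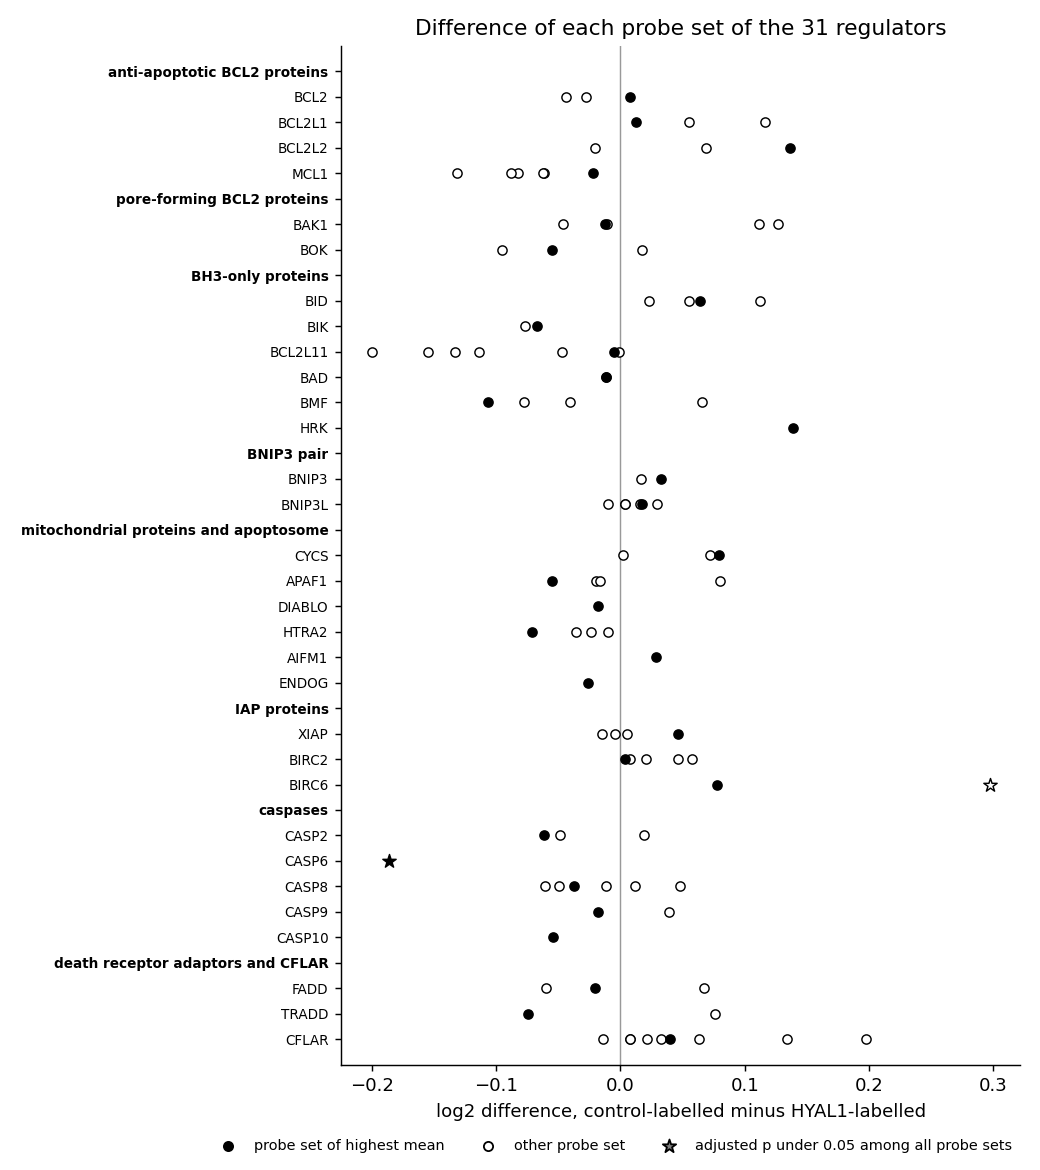
Difference of each of 103 probe sets of the 31 regulators (log2, control-labelled minus HYAL1-labelled), with filled symbols for the probe set of highest mean, open symbols for the others and stars for an adjusted p under 0.05 among all probe sets. Only CASP6 at -0.19 and the dimmer BIRC6 probe set at 0.30 carry stars.

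Over the 103 probe sets, 2 passed (CASP6 and the dimmer one of BIRC6), against 1.42% of all probe sets on the array. With the level-dependent prior 6 of the 103 passed. That prior called 6.70% of all genes, and its share over all probe sets is not given here. The groups were apart for 14 of 103 (13.6%), in 11 genes, against 23.9% of all probe sets, 9 of them higher on the control-labelled and 5 higher on the HYAL1-labelled arrays. Of the 25 genes with more than 1 probe set, 11 had all of them on the same side of 0 and 14 did not.

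The intervals cover only the probe set chosen for each gene. For 29 of the 30 genes that did not pass, the 95% interval of that probe set stayed within a 1.2-fold change either way, and for HRK it reached 1.24-fold. Other probe sets of a gene can lie outside its interval, as the dimmer one of BIRC6 did at 1.23-fold. The interval stayed within 0.15 log2 units for 16 of the 30. The SD within a group ran from 0.00392 to 0.124 over the 31 genes, with a median of 0.0383.

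The wider pathway was read with 3 lists of genes that hold none of the 31, of which 33 of 38 were measured. Among them 1 passed (3.03%, against 1.66% of all genes) and 9 had an unadjusted p under 0.05, against 17.4% of all genes. The groups were apart for 13 (39.4%, against 24.4% of all genes), 5 higher on the control-labelled and 8 higher on the HYAL1-labelled arrays. PMAIP1 (NOXA), a BH3-only gene that binds MCL1, was the one that passed. It read 10.17, 10.17 and 10.14 on the HYAL1-labelled arrays and 10.45, 10.40 and 10.39 on the control-labelled arrays, higher by 0.25 or 1.19-fold without overlap (limma, standard error 0.0322, adjusted p = 0.0205). The call was lost in all 6 fits that left out 1 array, with adjusted p from 0.0623 to 0.0941.

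Among the other BCL2 relatives and partners, 11 of 12 were read and 1 passed. BAX, the partner of BAK1 in pore formation, read 10.23, 10.31 and 10.28 on the HYAL1-labelled arrays against 10.09, 10.19 and 10.16 on the control-labelled arrays, apart but short of the threshold (-0.12, adjusted p = 0.181). BAG1, a BCL2-binding cochaperone, read 8.43, 8.44 and 8.45 against 8.30, 8.30 and 8.31 (-0.13, adjusted p = 0.0723). BCL2L13, a mitochondrial relative next to BID in the genome, differed by 0.12 (adjusted p = 0.25).

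Of the other caspases, IAP genes and caspase targets, 8 of 10 were read and 0 passed, with 3 at an unadjusted p under 0.05. The 3 were CASP14 at -0.13 (adjusted p = 0.138), BIRC7 at -0.09 (adjusted p = 0.248) and LMNA, which encodes lamin A, at -0.08 (adjusted p = 0.228). CASP14 was below the background median on every array. Of the receptor complex and NF-kappaB partners, 14 of 16 were read and 0 passed, with 2 at an unadjusted p under 0.05. These were CYLD, a deubiquitinase at the receptor complex, at 0.11 (adjusted p = 0.174), and NFKB1, which encodes an NF-kappaB subunit, at 0.10 (adjusted p = 0.203).

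**Figure D5:**
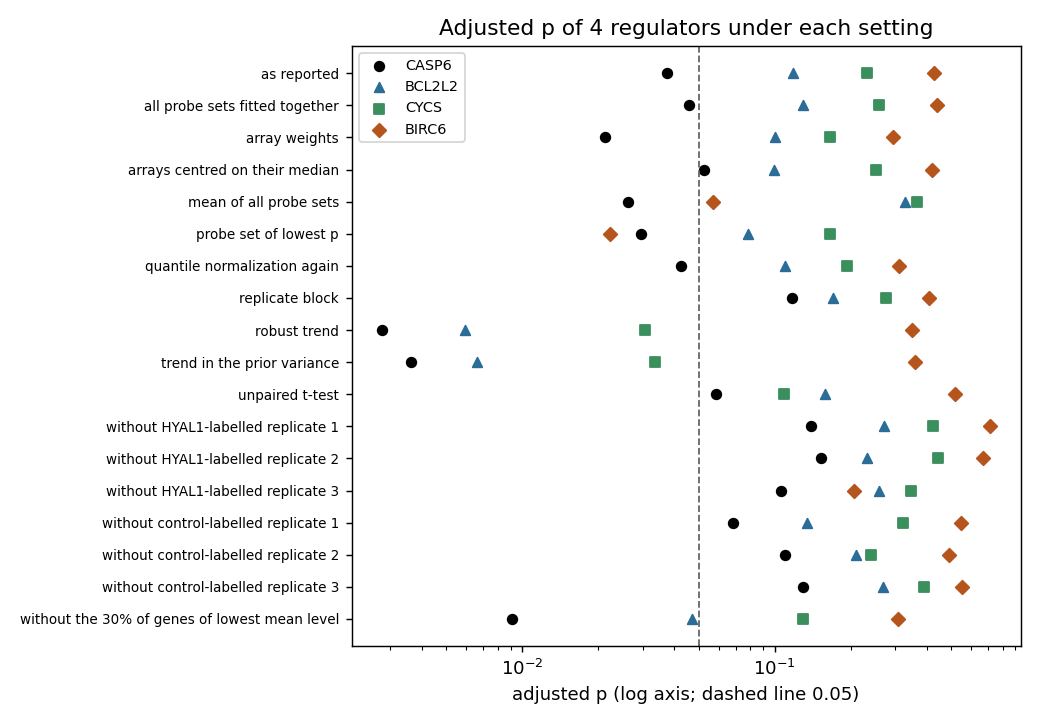
Adjusted p from limma (log axis, dashed line at 0.05) of CASP6, BCL2L2, CYCS and BIRC6 as reported and under each alternative setting, 1 row per setting. CASP6 lies left of the line as reported and in 8 of 17 alternatives, and right of it whenever 1 array is left out.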

How the data were processed

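RMA, which corrects background, quantile-normalizes and summarises each probe set, produced the log2 values that the authors deposited. The submitters' processing notes list RMA and Affymetrix Power Tools without versions. The 3′ labelling kit makes probe sets read mainly the end of a transcript. Of 39341 probe sets, 36097 had 1 gene symbol, 1397 several and 1847 none. A gene was represented by its probe set of highest mean. The HYAL1 probe set has no symbol and was found by its values in the study's supplementary gene table (tolerance 0.001, 1 match).

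Groups followed the labels and were compared over all 15277 genes with limma 3.58.1 in R 4.3.3 (empirical Bayes, 1 prior variance, prior degrees of freedom 3.25, Benjamini-Hochberg threshold 0.05), and probe sets likewise over all 39341. The script was tested on simulated data. Tables used Python 3.11.15 and pandas 2.3.3, exact tests scipy 1.17.1 and figures matplotlib 3.10.9. Arrays give no read depth, and 3 arrays a group limit the precision.

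Values on each array are given for the regulators that passed, or whose groups were apart with an unadjusted p under 0.05, and for the pathway gene that passed. Array values of HTRA2, BAX, BAG1 and single probe sets of BIRC6, BID and CFLAR were added after their values were seen. The members and lists were chosen with earlier results of these data known. Alternatives were other normalizations, probe set rules, prior variances, a level filter, array weights, a replicate block, the unpaired t-test and leaving out each array. For these arrays the study's methods name empirical Bayesian linear modelling, the kind of fit reported here, and a figure caption names the unpaired t-test. At an FDR under 0.05 the study reported many more genes as changed than the 253 that passed here. Why the counts differ was not tested.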

Additional observations from a re-analysis of the deposited data

How the results depend on the processing

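The median difference of the regulators and the HYAL1 difference kept their direction under every alternative run, with ranges of -0.0256 to -0.0022 and 2.66 to 2.73 when 1 array was left out. The count of 1 regulator passing, higher on the HYAL1-labelled arrays, became 0 with arrays centred on their medians (3 at an unadjusted p under 0.05), with the unpaired t-test after adjustment (3) and in each fit that left out 1 array (0 to 0, with 2 to 8 unadjusted). It became 2 with the probe set of lowest p (CASP6 and BIRC6), a rule that picks each gene's probe set by its own p. With the level filter, which kept 28 of the 31 regulators and called 6.29% of the genes kept, it was 2 (CASP6 and BCL2L2). The trended prior, which called 6.70% of all genes, and the robust trended prior gave 3 (CASP6, BCL2L2 and CYCS). The regulators passing as higher on the control-labelled arrays, 0 as reported, were then 1, 1, 2 and 2. The pathway genes passing, 1 as reported, were 2 with the mean of all probe sets and 2 with the probe set of lowest p. They were 2 of the 26 kept with the level filter, 4 with either trended prior, and 0 to 0 with 1 array left out. Why the trended priors call more was not tested. Over all 15277 genes the count of 253 was 249 with centring, 360 with the mean of probe sets and 729 with the probe set of lowest p. It was 406 with array weights, 366 with quantile normalization, 1024 and 1079 with the trended priors and 90 with the t-test. With 1 array left out it was 15 to 52. With the level filter it was 673 of the 10694 genes kept.

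Deviations of same-numbered arrays correlated at 0.033, -0.011 and 0.208 between the groups. Differently numbered arrays were not compared in this way, so whether the replicate numbers pair the arrays was not tested. With the replicate block 0 regulators passed (CASP6 adjusted p = 0.117, 4 at an unadjusted p under 0.05), 0 pathway genes passed (9 unadjusted), and 1 gene passed over all genes.

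Of 338 single-gene values under the other alternatives, 9 changed sign, none of a gene that passed. These were BAK1 (0.0338 with the mean of probe sets, 0.1272 with the lowest p), BCL2 (-0.0212 and -0.0439), CASP9 (0.0103 and 0.0390), FADD (0.0672 with the lowest p), TRADD (0.0008, mean) and BCL2L11 (0.0028, quantile normalization). With 1 array left out, signs changed within the ranges -0.0256 to 0.0139 for BAD, -0.0665 to 0.031 for BAK1, -0.0385 to 0.0409 for BCL2, -0.0202 to 0.0416 for BCL2L1, -0.0351 to 0.0366 for BCL2L11, -0.0045 to 0.0087 for BIRC2, -0.0573 to 0.0241 for CASP9 and -0.0036 to 0.1061 for XIAP. The causes were not tested.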
